A study of Mus musculus with 6 samples.

Results

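The genes described here are 9 mouse cytochrome P450 genes of family 4: Cyp4a10, Cyp4a12a, Cyp4a12b, Cyp4a14, Cyp4a31, Cyp4a32, Cyp4f14, Cyp4f15 and Cyp4v3. They were taken by name from a table of 23474 Ensembl mouse gene identifiers, and all 9 were found and passed the filter on low values. The table gives expression as FPKM, which scales fragments by transcript length and by the depth of the library. Liver RNA came from male C57BL/6J mice aged 17 weeks, which had been on their diet for 12 weeks from the age of 5 weeks. A high-fat diet (HFD, 3 libraries) was compared with that diet mixed with extract of the oriental herbal medicine Bangpungtongseong-san at 1.5% w/w (BT, 3 libraries). The study fed 20 mice in 2 groups of 10 and took an interest in mRNA of lipid and glucose metabolism. Both groups ate the high-fat diet, so no library shows the levels on ordinary chow. Whether each library came from a single mouse or from pooled mice is not stated, so p-values cover only library-to-library spread, which may be technical.

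Enzymes of this family add a hydroxyl group to the far end, or omega carbon, of fatty acids and of signalling lipids made from them. Alcohol and aldehyde dehydrogenases then turn the product into a dicarboxylic acid, which peroxisomes shorten. In liver, Cyp4a10 and Cyp4a14 are classical target genes of the fatty acid receptor PPARA, whereas Cyp4a12a is expressed more in male than in female mice and hydroxylates arachidonic acid.

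The depth of the libraries is known only roughly. The smallest values put it at 13800000 to 15800000 fragments per library. A fixed window of values limits which depths this estimate can return, so it cannot show whether the libraries were alike in depth. FPKM summed to between 783151 and 930139 per library. Of 10 hepatocyte markers, 1 was lower with BT and 9 were above 0 in all libraries, while Alb is listed at 0 in HFD replicate 3 and at high levels in the other 5, so a 0 can be a failed estimate. None of the 9 Cyp4 genes is listed at 0 in any library. The 5 markers of kidney, another site of Cyp4a expression, summed to at most 0.0605 FPKM in any library. Markers of stellate cells summed to 89.2 to 153 FPKM with HFD and 64.1 to 88.1 with BT. Of its 6 markers tested, 1 was lower and none higher. Of the 7 macrophage and 5 endothelial markers tested none passed the threshold. In bulk liver, fewer cells of a type and less RNA per cell cannot be told apart. Library codes in the labels carry 1 letter in the HFD group and another in the BT group, so a difference between sets of libraries and the diet cannot be told apart.

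Several of these genes are near copies of each other, which sets how their values can be read. By the GENCODE M21 annotation (GRCm38; the authors' own build was not given in the sources used here), the 6 Cyp4a genes lie within 322.6 kb of chromosome 4. In order they are Cyp4a12a (115299046 to 115332815, + strand), Cyp4a12b (115411624 to 115439034, +), Cyp4a14 (115486200 to 115496142, -), Cyp4a10 (115518264 to 115533649, +), Cyp4a31 (115563649 to 115579015, +) and Cyp4a32 (115600969 to 115621602, +). On chromosome 17 lie Cyp4f15 (32685627 to 32703352, +) and Cyp4f14 (32905070 to 32917342, -), and Cyp4v3 lies on chromosome 8 (45304944 to 45333216, -). All 9 are annotated as protein-coding, and these spans are whole genes with 11 to 13 exons in the longest coding transcript.

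The coding sequences of Cyp4a12a and Cyp4a12b were 98.6% identical, with 20 mismatches and a longest identical run of 342 bases. Cyp4a10 was 97.2% identical to Cyp4a32 and 96.6% to Cyp4a31, and these last were 96.0% identical to each other, with a longest identical run of 211 bases. Cyp4a14 stood apart, at 75.8% to 76.9% to the other Cyp4a genes, and Cyp4f14 and Cyp4f15 were 80.2% identical to each other. Cyp4v3 was the most distant, with 51.1% to 53.0% to any of the other 8.

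**Figure D1:**
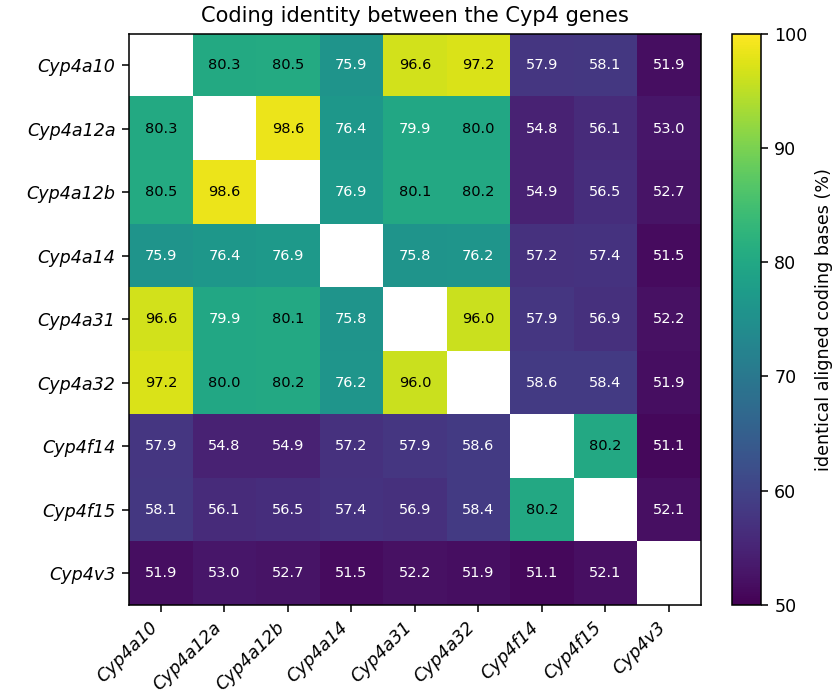
Share of aligned coding bases that are identical, in percent, for each pair of the 9 genes (longest protein-coding transcript of each in GENCODE M21). The highest values are those of Cyp4a12a with Cyp4a12b (98.6%), Cyp4a10 with Cyp4a32 (97.2%) and with Cyp4a31 (96.6%), and Cyp4a31 with Cyp4a32 (96.0%).

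A count of transcript windows shows how much of each gene a short read could tell apart. Of all 50-base windows, 48.9% of those of Cyp4a12a and 49.4% of those of Cyp4a12b occur unchanged in the other gene. With 100-base windows these shares were 35.8% and 36.2%. For Cyp4a32, 46.8% of 50-base windows occur in another gene, for Cyp4a10 30.5% and for Cyp4a31 21.8%. By contrast Cyp4a14 shared 0.245%, Cyp4f14 2.72% and Cyp4f15 2.45%. Cyp4v3 shared 7.02%, all with Gm45753, a gene model whose exons cover 8.22% of its exon bases. How long the reads were, and how reads that fit several genes were counted, was not given in the sources used here. The annotated transcript of Cyp4a32 holds almost no untranslated sequence (1530 bases, of which 1527 code), so its level per length depends on that gene model.

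The coding stretch of 100 bases with the most mismatches between Cyp4a12a and Cyp4a12b shows how little separates them. It covers coding bases 455 to 554 of both, counted from the A of the start codon, in GENCODE M21, 5′ to 3′. Capitals mark the 5 bases that differ.
Cyp4a12a: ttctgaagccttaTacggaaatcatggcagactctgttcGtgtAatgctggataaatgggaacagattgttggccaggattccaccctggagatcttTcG
Cyp4a12b: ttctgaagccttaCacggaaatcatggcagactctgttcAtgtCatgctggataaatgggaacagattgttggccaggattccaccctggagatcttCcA
Between Cyp4a10 and Cyp4a31 the stretch with the most mismatches, coding bases 66 to 165 of both, holds 8, again in capitals.
Cyp4a10: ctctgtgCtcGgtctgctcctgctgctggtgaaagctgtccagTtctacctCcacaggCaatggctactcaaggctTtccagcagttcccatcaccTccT
Cyp4a31: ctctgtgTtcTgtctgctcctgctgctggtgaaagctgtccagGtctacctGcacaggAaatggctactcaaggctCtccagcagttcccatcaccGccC
Between Cyp4a10 (coding bases 513 to 612) and Cyp4a14 (507 to 606), the most abundant members, the same length holds 29 mismatches, and their longest identical coding run is 23 bases.
Cyp4a10: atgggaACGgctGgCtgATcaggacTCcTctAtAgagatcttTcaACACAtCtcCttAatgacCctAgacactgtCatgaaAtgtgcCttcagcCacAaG
Cyp4a14: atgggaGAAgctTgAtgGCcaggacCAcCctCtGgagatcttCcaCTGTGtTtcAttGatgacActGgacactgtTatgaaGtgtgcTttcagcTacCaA

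With HFD the mean levels in FPKM, a scale per length, fell in the order Cyp4a14 (900.5), Cyp4a10 (724), Cyp4f15 (98.6), Cyp4v3 (83.3), Cyp4a12a (74.6), Cyp4f14 (34.5), Cyp4a32 (31.0), Cyp4a31 (12.8) and Cyp4a12b (10.9). The libraries of neighbours in this order overlapped, except between Cyp4a10 and Cyp4f15, Cyp4a12a and Cyp4f14, and Cyp4a32 and Cyp4a31. With BT the order was Cyp4a14 (905), Cyp4a10 (691), Cyp4f15 (136), Cyp4a12a (131), Cyp4v3 (108), Cyp4f14 (64.6), Cyp4a32 (35.3), Cyp4a12b (35.3) and Cyp4a31 (10.4). Here only Cyp4f15 with Cyp4a12a and Cyp4a32 with Cyp4a12b overlapped among neighbours. By their means, Cyp4a12a stood above Cyp4v3 with BT and below it with HFD, and Cyp4a12b above Cyp4a31 with BT and below it with HFD. The HFD order did not hold in every library. Cyp4a12a (90.6) was above Cyp4v3 (75.3) in HFD replicate 3, and Cyp4a12b (23.1) above Cyp4a31 (12.8) in HFD replicate 1.

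**Figure D2:**
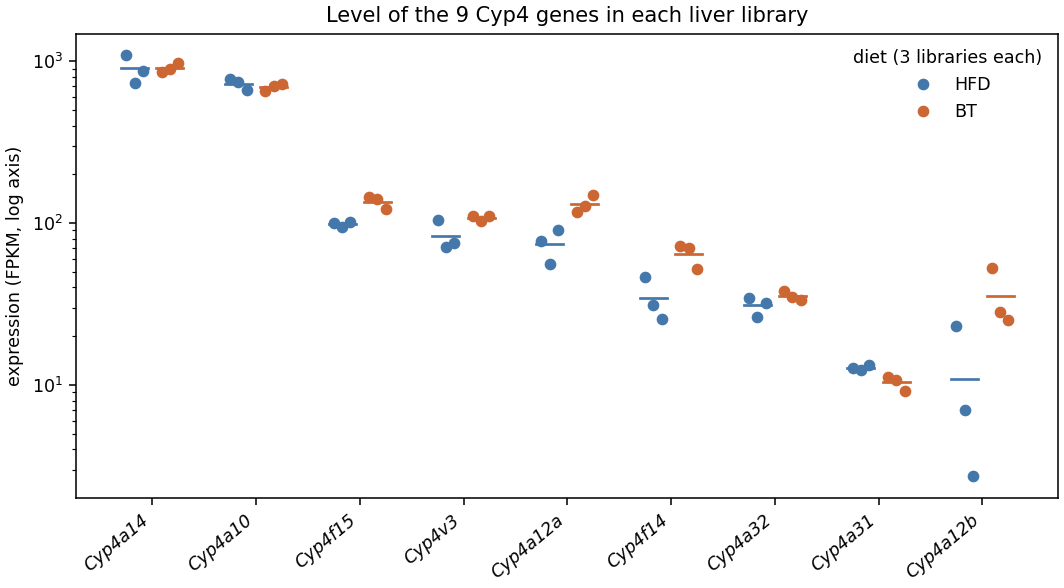
Expression of the 9 genes in FPKM on a log axis, 1 point per library (3 HFD, 3 BT, replicates 1 to 3 from left to right) with the group mean as a bar, ordered by the HFD mean. BT points lie above all HFD points for Cyp4f15, Cyp4a12a, Cyp4f14 and Cyp4a12b and below them for Cyp4a31.

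Between the diets 3 of the 9 genes rose with BT and none fell: Cyp4a12a, Cyp4f14 and Cyp4f15. The test was limma on log2(FPKM + 1), p-values adjusted by Benjamini-Hochberg across the 10476 genes that entered it, and a call at 0.05. Of those genes 6.01% were higher and 7.33% lower with BT (630 and 768, or 459 and 862 with median-of-ratios scaling). The median change was 0.39 over the 9 members and 0.07 over all genes tested. The BT libraries lay above all HFD libraries in 4 members and below them in 1, against 23.2% and 16.1% of all genes tested (39.3% in either direction). The members were chosen with results of these data known, so the counts describe them and carry no test.

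**Figure D3:**
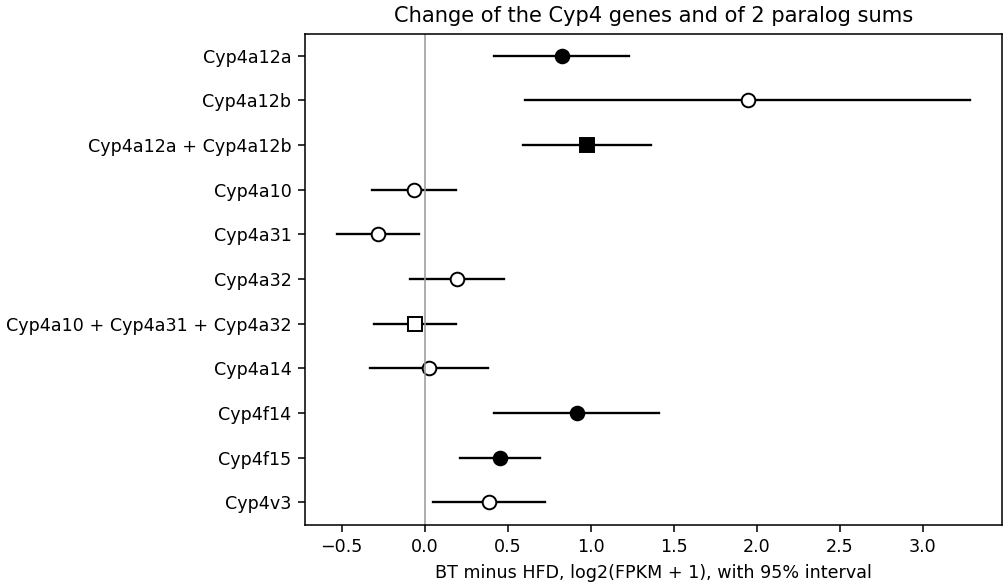
Difference between BT and HFD on the log2(FPKM + 1) scale with limma's 95% interval, for the 9 genes (circles) and for 2 sums of near-identical genes (squares). Filled symbols have an adjusted p under 0.05: Cyp4a12a, Cyp4f14, Cyp4f15 and the sum of Cyp4a12a and Cyp4a12b.

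Cyp4a12a, the male-biased arachidonic acid hydroxylase, was at 77.0, 56.2 and 90.6 FPKM in HFD replicates 1, 2 and 3. With BT it was at 117, 127 and 149.6 FPKM. Every BT library was above every HFD library. The mean went from 74.6 ± 17.3 to 131 ± 16.8 FPKM (SD, n = 3 each), which is 1.76-fold, and the log2 change was 0.82 ± 0.18 (SE, limma adjusted p = 0.0244). The call was lost without any 1 of the BT libraries (limma adjusted p = 0.0675, 0.0688 and 0.0675), while the change stayed between 0.64 and 0.98 in the 6 fits that left out 1 library.

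Cyp4a12b, its near copy, was at 23.1, 6.98 and 2.72 FPKM with HFD and at 52.8, 28.2 and 25.1 FPKM with BT. Again the groups did not overlap, but the HFD libraries differed widely among themselves. By the rough estimate of depth, the lowest value, in HFD replicate 3, corresponds to roughly 102 fragments and the highest, in BT replicate 1, to roughly 1825. The log2 difference of 1.95 ± 0.59 did not pass the threshold (limma adjusted p = 0.0597, interval 0.61 to 3.29). It passed without HFD replicate 1 (2.66, limma adjusted p = 0.0120).

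Because 48.9% and 49.4% of their 50-base windows are shared, the 2 genes were also taken as 1 sum before the fit. The sum was at 100.05, 63.2 and 93.3 FPKM with HFD and at 169.5, 155 and 175 FPKM with BT. It rose from 85.5 ± 19.6 to 166 ± 10.2 FPKM (SD, n = 3 each), 1.95-fold, with a log2 change of 0.98 ± 0.17 (limma adjusted p = 0.0136). Among the BT libraries the SD of the sum, 10.2 FPKM, was below that of Cyp4a12a (16.8) and that of Cyp4a12b (15.2). In these 3 libraries the order of Cyp4a12b is the reverse of that of Cyp4a12a. Neither held with HFD. There the SD of the sum (19.6) was above that of Cyp4a12a (17.3) and of Cyp4a12b (10.7), and the orders were not reversed. The part of the sum assigned to Cyp4a12b ran from 2.91% to 23.1% with HFD and from 14.4% to 31.1% with BT, which overlap. The sum missed the threshold without BT replicate 1 (0.96, limma adjusted p = 0.0605) and passed in the other 5 fits that left out 1 library.

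**Figure D4:**
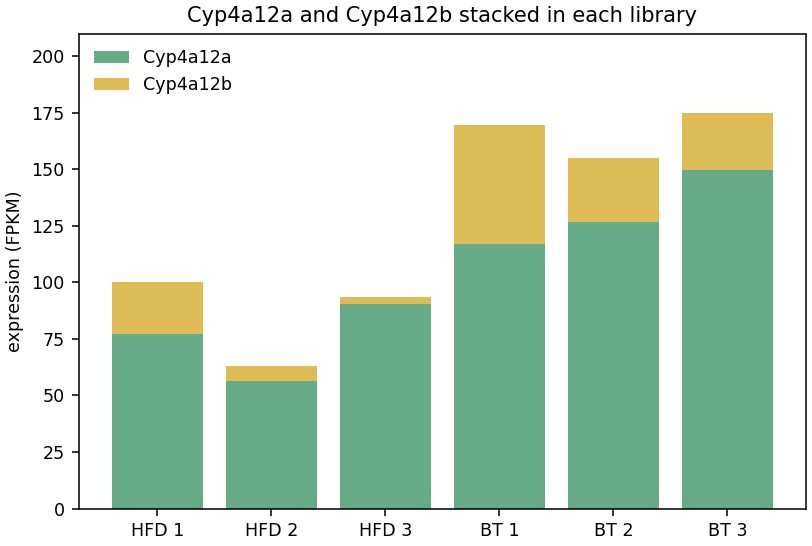
Expression of Cyp4a12a and Cyp4a12b in FPKM, stacked, in each of the 6 libraries. The stacks stand at 63.2 to 100.05 FPKM with HFD and at 155 to 175 FPKM with BT, while the part assigned to Cyp4a12b varies from library to library.

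The PPARA-responsive members did not pass the test. Cyp4a14, a fatty acid hydroxylase and the most abundant member, was at 1097, 730.2 and 874 FPKM with HFD and at 851, 894 and 968 FPKM with BT. All BT values lay within the range of the HFD values, and the log2 difference was 0.02 ± 0.16 (limma adjusted p = 0.926, interval -0.33 to 0.38). Cyp4a10, which also hydroxylates medium-chain fatty acids such as lauric acid, was at 770.4, 740.1 and 662 FPKM with HFD and at 649.9, 698 and 725 FPKM with BT. These ranges overlapped too, with a log2 difference of -0.07 ± 0.11 (limma adjusted p = 0.701, interval -0.32 to 0.19). The signs of both near-zero differences depended on the scaling, as Cyp4a14 was at -0.045 with median-of-ratios scaling and Cyp4a10 at 0.026 on rescaling to TPM.

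Cyp4a31 and Cyp4a32, the low-level copies of Cyp4a10, had differences of opposite sign, and neither passed the threshold. Cyp4a31 was at 12.8, 12.3 and 13.2 FPKM with HFD and at 11.1, 10.7 and 9.22 FPKM with BT, so every BT library was below every HFD library. Its log2 difference was -0.28 ± 0.11 (limma adjusted p = 0.116). Cyp4a32 was at 34.7, 26.3 and 31.9 FPKM with HFD and at 37.9, 34.9 and 33.2 FPKM with BT, which overlap (0.19 ± 0.12, limma adjusted p = 0.311). Its difference ran from 0.082 without HFD replicate 2 to 0.42 with length and GC trends removed, and passed in no alternative. As a sum Cyp4a10, Cyp4a31 and Cyp4a32 stood at 768 ± 56.0 and 737 ± 34.8 FPKM (SD, n = 3 each; -0.06 ± 0.11, limma adjusted p = 0.733). Cyp4a10 made up about 93.0% of this sum or more in every library.

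The 6 Cyp4a genes together summed to between 1572 and 2015 FPKM with HFD and between 1720 and 1910.1 FPKM with BT. The part held by Cyp4a12a was 3.58% to 5.41% with HFD and 6.79% to 7.83% with BT, without overlap. Cyp4a14 held 46.4% to 54.4% with HFD and 49.5% to 50.7% with BT. The total was thus set mostly by Cyp4a14 and Cyp4a10 in both groups.

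Cyp4f14, known as a hydroxylase of the inflammatory lipid leukotriene B4, was at 46.7, 31.4 and 25.5 FPKM with HFD. With BT it was at 72.6, 69.7 and 51.7 FPKM, above all HFD libraries. It rose from 34.5 ± 10.9 to 64.6 ± 11.3 FPKM (SD, n = 3 each), 1.87-fold, with a log2 change of 0.91 ± 0.22 (limma adjusted p = 0.0322). The call ended with median-of-ratios scaling (limma adjusted p = 0.0556) and without HFD replicate 2, HFD replicate 3, BT replicate 1 or BT replicate 2 (limma adjusted p = 0.0617 to 0.119).

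Cyp4f15, a close relative of Cyp4f14, was at 99.4, 94.2 and 102 FPKM with HFD and at 145, 141 and 121 FPKM with BT. The HFD libraries were close together and all below the BT libraries. The mean went from 98.6 ± 4.02 to 136 ± 12.5 FPKM (SD, n = 3 each), 1.38-fold, and the log2 change was 0.45 ± 0.11 (limma adjusted p = 0.0300). It missed the threshold with median-of-ratios scaling (limma adjusted p = 0.0749) and without HFD replicate 2, BT replicate 1 or BT replicate 2 (limma adjusted p = 0.0680 to 0.131).

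The 2 Cyp4f genes that rose have windows in RefSeq's promoter table, which holds 4 of the 9 members. The 250 bases before their annotated starts in RefSeq are shown because both of these chromosome 17 genes rose. RefSeq's start of Cyp4f15 (32685659) lies inside the GENCODE span given above, which begins at 32685627, so the annotations differ there, while for Cyp4f14 both have 32917342. Both windows are read 5′ to 3′ on the gene's strand from GRCm38.p6, and capitals mark runs of at least 9 bases present in both windows.
Cyp4f15 (chr17:32685409-32685658, + strand): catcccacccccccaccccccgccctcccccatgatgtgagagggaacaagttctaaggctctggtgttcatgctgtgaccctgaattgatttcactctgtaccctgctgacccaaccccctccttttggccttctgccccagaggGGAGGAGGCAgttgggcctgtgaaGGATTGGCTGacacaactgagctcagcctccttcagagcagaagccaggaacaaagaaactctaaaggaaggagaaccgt
Cyp4f14 (chr17:32917343-32917592, - strand): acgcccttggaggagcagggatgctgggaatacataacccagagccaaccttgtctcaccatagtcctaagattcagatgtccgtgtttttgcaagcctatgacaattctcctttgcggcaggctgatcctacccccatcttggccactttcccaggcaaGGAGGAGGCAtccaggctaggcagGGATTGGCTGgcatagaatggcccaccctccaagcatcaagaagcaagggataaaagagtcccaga
The windows share GGAGGAGGCA and GGATTGGCTG, in the same order and separated by 14 bases in both. On either strand these runs occur in 0.490% and 0.438% of the 32851 RefSeq promoter windows. The only 4 windows with both belong to Cyp4f14, which has several annotated starts, and Cyp4f15. The runs were chosen because both genes hold them, so finding both there was fixed in advance. GGATTGGCTG also occurs in a window of Cyp4f18, which was too low to be tested (0.585 FPKM with HFD, 0.465 with BT). Whether the runs bear on expression was not tested. Windows were available for Cyp4a32, Cyp4f14, Cyp4f15 and Cyp4v3 only, so Cyp4a10, Cyp4a12a, Cyp4a12b, Cyp4a14 and Cyp4a31 were not searched. On both strands, these windows of 300 bases held no AGGTCA, the half-site of PPAR receptors (in 16.3% of all windows). Nor did they hold a direct repeat of that half-site with a 1-base spacer (0.0396%). The repeat with the fourth base of each half-site left free, which covers the strict one, was absent too (0.381%). These windows also held no TTCNNNGAA, the STAT5 motif (8.30% of all windows). In so few windows the absence of motifs at these background shares is unremarkable. A TATAAA was found in the Cyp4a32 window (13.6% of all windows), on the strand opposite to the gene and from base -113 relative to the annotated start.

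Cyp4v3, the mouse counterpart of a human gene mutated in a crystalline disease of the retina, was at 104, 70.8 and 75.3 FPKM with HFD and at 111, 102 and 109.96 FPKM with BT. HFD replicate 1 lay within the BT range, and the other 2 HFD libraries lay below it. The log2 difference of 0.39 ± 0.15 did not pass (limma adjusted p = 0.111). Without HFD replicate 1 it did (0.55, limma adjusted p = 0.0170).

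Other genes of the family were low or did not pass. Of 13 further Cyp4 genes, 9 are in the table and 4 were tested, of which none passed the threshold. Cyp4f13, which lies beside Cyp4f14, was at 39.8, 43.3 and 35.6 FPKM with HFD and at 48.8, 52.1 and 45.1 with BT (0.29 ± 0.11, limma adjusted p = 0.109). Its BT libraries were all above its HFD libraries, and it passed with length and GC trends removed (0.47, limma adjusted p = 0.0235). Cyp4f17 and Cyp4f16 differed by 0.18 and -0.25 (limma adjusted p = 0.305 and 0.391).

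Across the 6 libraries each member was set beside every other gene tested, as a description in which all genes share libraries, depth and the split by diet. The gene most like Cyp4a12a was Rev3l, a DNA polymerase subunit gene (Pearson r = 0.998, Spearman rho = 1, n = 6 libraries), and 424 named genes reached a Pearson r of 0.95 with it. For Cyp4f14 the most alike gene was Urad (r = 0.997), for Cyp4f15 Exoc4 (r = 0.994) and for Cyp4a12b Mpv17l (r = 0.996). For the members that did not split by diet they were Golga7 for Cyp4a14 (r = 0.995), Ap1g2 for Cyp4a10 (r = 0.986), Chmp7 for Cyp4a32 (r = 0.991) and Hspd1 for Cyp4v3 (r = 0.998). For Cyp4a31, which was lower in every BT library, it was Cox11 (r = 0.988). Between 16 and 142 genes reached 0.95 with each member other than Cyp4a12a. Among the members themselves, Cyp4a12b and Cyp4f14 were the most alike (r = 0.963) and Cyp4a12a and Cyp4a31 the most opposed (r = -0.798).

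The electron donors that microsomal P450 enzymes need were not of 1 direction. Por, the reductase that passes electrons to all of them, rose from 126 ± 3.47 to 258 ± 27.2 FPKM (SD, n = 3 each; 1.03 ± 0.11, limma adjusted p = 0.00306). Its call held whichever library was left out. It was the only one of 5 donor genes to pass, beside 6.01% higher and 7.33% lower over all genes tested. Cyb5a, cytochrome b5, differed by -0.43 (limma adjusted p = 0.0652) and its reductase Cyb5r3 by -0.33 (limma adjusted p = 0.0669). For both, every BT library was below every HFD library, as in 16.1% of all genes tested. Over the alternatives Cyb5a ran from -0.51 to -0.11 (limma adjusted p = 0.0400 to 0.517). Cyb5r3 ran from -0.40 to -0.21 (limma adjusted p = 0.0579 to 0.241).

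A list of genes for oxidation to dicarboxylic acids and for peroxisomal breakdown also holds genes of more general peroxisomal and acyl-CoA metabolism. Of its 28 tested genes 4 rose and 2 fell, with a median change of 0.06. Over all genes tested 6.01% were higher and 7.33% lower, with a median of 0.07. The alcohol dehydrogenase genes Adh4 and Adh7 rose by 0.93 and 1.21. Adh4 went from 85.2 ± 25.8 to 158 ± 2.51 FPKM (SD, n = 3 each; limma adjusted p = 0.0191), and Adh7 from 2.24 to 6.35 FPKM (limma adjusted p = 0.0166). Slc27a2, a very-long-chain acyl-CoA synthetase and transporter gene, and Acot3, a peroxisomal thioesterase gene, rose by 0.56 and 0.73. Acot4, a thioesterase of dicarboxylic acyl-CoA, fell by 1.28 and Acaa1b, a peroxisomal thiolase gene, fell by 0.56. The aldehyde dehydrogenase gene Aldh3a2 differed by 0.26 (limma adjusted p = 0.205) and Ehhadh, a peroxisomal bifunctional enzyme, by -0.20 (limma adjusted p = 0.272). With 1 library left out at a time, Acot4 was called in 6 of 6 fits. Acot3 was called in 5, Adh4, Adh7 and Slc27a2 in 3 and Acaa1b in 2. With trends in transcript length and GC content removed, Acaa1b missed the threshold (-0.31, limma adjusted p = 0.0851). With a pseudocount of 0.1 the change of Acot4 was -2.04.

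In a list of other known target genes of PPARA the calls were all downward. This list holds none of the omega-oxidation and peroxisomal genes described above, of which 4 rose and 2 fell. Over all genes tested 7.33% fell and 6.01% rose, with a median of 0.07. Of 33 tested in the PPARA list 9 fell and none rose, with a median change of -0.10. They were Fgf21 (-1.87), G0s2 (-1.04), Pdk4 (-0.90), Plin5 (-0.85), Angptl4 (-0.72), Fabp1 (-0.71), Acot2 (-0.70), Cpt1b (-0.58) and Eci1 (-0.50), with limma adjusted p-values of 0.00612 to 0.0481. These genes cover a hormone, lipid droplet proteins, fuel switching and mitochondrial oxidation. Cpt1a, the control enzyme of mitochondrial fatty acid entry, differed by 0.24 (limma adjusted p = 0.173). Leaving out 1 library at a time, the Fgf21 call held in 6 of 6 fits, Plin5 in 5, Pdk4 and Eci1 in 3, and the others in 1 or 2. With length and GC trends removed, 4 of the 9 missed the threshold: Eci1 (-0.18, limma adjusted p = 0.206), Fabp1 (-0.36, 0.128), G0s2 (-0.67, 0.143) and Plin5 (-0.67, 0.0564). The G0s2 call was lost in 13 of 18 alternatives, including a pseudocount of 0.1. Of 15 genes of PPARA, its partners and cofactors, Med1, a Mediator subunit gene, rose by 0.56 (limma adjusted p = 0.0406, kept in 1 of the 6 fits that left out 1 library, and 0.33 with limma adjusted p = 0.102 with length and GC trends removed) and none fell. Ppara itself differed by 0.34 ± 0.15 (limma adjusted p = 0.155).

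**Figure D5:**
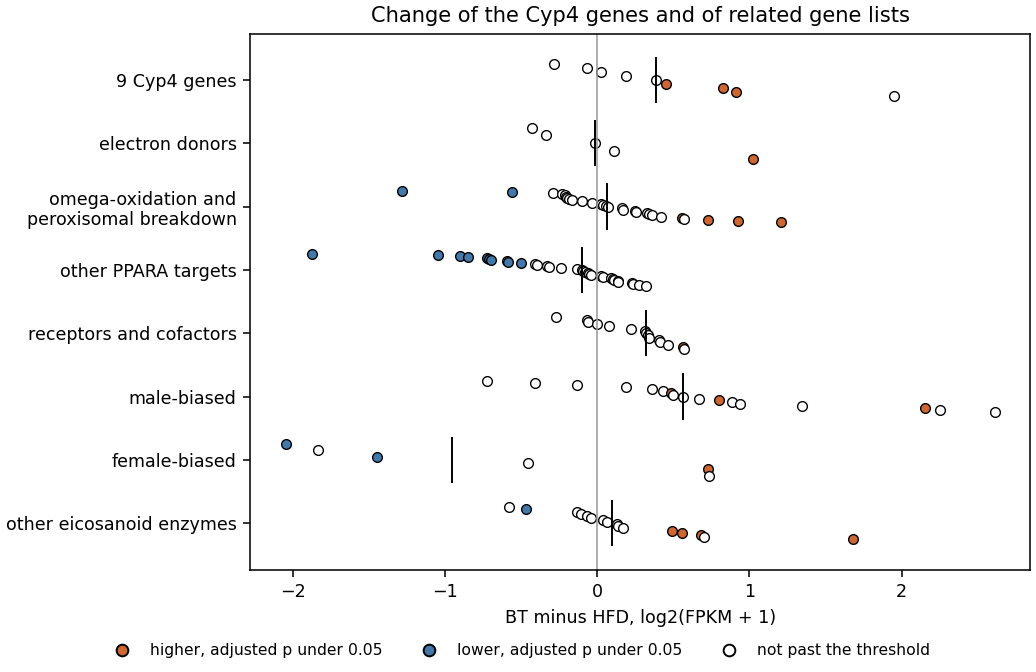
Difference between BT and HFD on the log2(FPKM + 1) scale for the 9 Cyp4 genes and for each tested gene of 7 related lists, 1 point per gene, with the median of the list as a vertical line. The 9 called genes in the list of other PPARA targets all lie below 0, whereas the 3 called Cyp4 genes lie above 0. Called genes of the omega-oxidation list lie on both sides.

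Cyp4a12a and Cyp4a12b are known as male-biased genes that respond to growth hormone and androgen, so other genes of that kind were set beside them. Of 17 male-biased genes tested 3 rose and none fell (6.01% and 7.33% over all genes tested), with a median change of 0.57. They were Serpina1e (2.15), a protease inhibitor gene, Ugt2b1 (0.80), a glucuronosyltransferase gene, and C8a (0.48), a complement gene, with limma adjusted p-values of 0.0414, 0.0458 and 0.0495. Each passed in only 1 or 2 of the 6 fits that left out 1 library. Of the 14 that did not pass, 11 had a positive difference and 3 a negative one. The smallest p-values among them were those of Gstp1 (-0.41), Hsd3b5 (2.61) and Slco1a1 (2.25), with limma adjusted p-values of 0.0662, 0.0731 and 0.0864. The groups overlapped in Hsd3b5 and Slco1a1. Hsd3b5 was at 2.58, 0.185 and 0.124 FPKM with HFD and at 32.8, 11.8 and 1.50 FPKM with BT. Slco1a1 in HFD replicate 1 (42.9 FPKM) lay within its BT range of 41.1 to 55.6 FPKM. In Gstp1, a glutathione transferase gene, and in Elovl3 (-0.72, limma adjusted p = 0.179), a fatty acid elongase gene, every BT library was below every HFD library. The difference of Gstp1 was -0.036 with length and GC trends removed, and that of Elovl3 was -0.25 without HFD replicate 1. Of 6 female-biased genes tested, Cyp2b9 (-2.04) and Cyp17a1 (-1.44) fell and Acot3 rose. Among growth hormone and androgen signalling genes Cish, a feedback inhibitor of the receptor, rose by 1.71 (limma adjusted p = 0.0214), as 1 of 9 tested, and missed the threshold without HFD replicate 2 or BT replicate 1. Socs2, another feedback inhibitor, differed by 0.90 (limma adjusted p = 0.0605) and the receptor gene Ghr by 0.14 (limma adjusted p = 0.383). Serpina1e, Cyp2b9 and the Acot genes, among others named here, have close paralogs, so reads may be split among copies as for the Cyp4a genes. How much sequence these genes share with their paralogs was not measured.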

How the data were processed

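Liver RNA of 6 libraries (3 HFD, 3 BT) was sequenced from Illumina TruSeq libraries, per the labels' protocols. Expression values are FPKM as deposited by the authors, 1 column per library. CASAVA 1.8.2, STAR 2.4.0 and Cufflinks 2.1.1 are named in the submitters' processing notes, without role or order. The sources used here name neither the genome build nor the strandedness of counting. Groups came from the sample titles. GENCODE M21 (GRCm38) named 22671 of 23474 identifiers. Depth was estimated from the smallest values of genes with 1 transcript over 1000 bases (FPKM times kilobases between 0.03 and 0.1). This is rough, and the fixed window limits the depths that can come out, so likeness between libraries is partly set by it.

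Values were tested as log2(FPKM + 1) for genes averaging 1 FPKM or more by limma 3.58.1 in R 4.3.3 (lmFit, eBayes with a variance trend, 4 residual degrees of freedom), two-sided, with Benjamini-Hochberg adjustment over 10476 genes. On the log2(FPKM + 1) scale changes of low genes are understated. No exact permutation test is printed, as 3 against 3 allows no p under 0.1. On simulated data, with noise drawn independently for each gene and library, 200 of 10476 genes were changed. Of these 97% (log2 size 1) and 99% (size 2) were recovered. The called members changed by less (0.45 to 0.91), so these rates do not give the power for them. Coding sequences were aligned globally with Biopython 1.88. The text names all members, of each list the genes past the threshold or else the 3 with the smallest p, and the genes most like a member (5 were ranked, 1 is named). Members and lists were chosen with earlier results of these data known, and further list genes were named after their values were seen. The alternatives were another pseudocount, other filters, scalings and variance models, a replicate block, removal of length and GC trends, summed paralogs and leaving out each library.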

Additional observations from a re-analysis of the deposited data

How the results depend on the processing

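Cyp4a12a, Cyp4f14 and Cyp4f15 kept a positive change in every alternative, with ranges of 0.64 to 0.98, 0.73 to 1.15 and 0.38 to 0.54. Their calls did not hold in all. Without a filter on low values, where more genes enter the adjustment, they missed the threshold (limma adjusted p = 0.0665, 0.0844 and 0.0538 at unchanged changes of 0.82, 0.91 and 0.45). With median-of-ratios scaling Cyp4f14 (0.85) and Cyp4f15 (0.38) missed it, and the cause was not tested. Leaving out 1 library gave 0.64 to 0.98 for Cyp4a12a, 0.73 to 1.15 for Cyp4f14, 0.40 to 0.53 for Cyp4f15, 1.31 to 2.66 for Cyp4a12b, 0.28 to 0.55 for Cyp4v3, -0.12 to 0.18 for Cyp4a14 and 0.78 to 1.10 for the sum of Cyp4a12a and Cyp4a12b. That sum passed in every alternative other than the fit without BT replicate 1. Cyp4a14 turned negative with median-of-ratios scaling (-0.045), array weights (-0.049) and length and GC trends removed (-0.0034), as did Golga7, the gene most like it (-0.045, -0.044 and -0.12, and -0.12 to 0.18 when 1 library was left out). Cyp4a10 turned positive on rescaling to TPM (0.026), and the sum of Cyp4a10, Cyp4a31 and Cyp4a32 on rescaling to TPM (0.034) and with length and GC trends removed (0.0034). These differences were near 0 throughout. The count of genes differing between the diets was 1398 and became 545 without a filter (200 higher, 345 lower), 903 with length and GC trends removed (445 lower), and 173 to 1536 when 1 library was left out (49 to 855 higher, 124 to 814 lower), lowest without BT replicate 1.

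With a replicate block Cyp4a12b passed (1.95, limma adjusted p = 0.00703), and no other member changed its call. The count rose to 1808. The replicate numbers are not known to mark shared litters or days. Same-numbered libraries of the 2 diets deviated from their group means with correlations of 0.163, 0.0972 and 0.147 over genes, not all above 0.1, although each library correlated best with its own number. They were therefore not treated as pairs. At roughly 13800000 to 15800000 fragments per library, Cyp4a12b had roughly 102 to 1825 fragments and Cyp4a31 roughly 324 to 516. These counts rest on the depth estimate that a fixed window limits. Whether depth limits these genes was not tested.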

Other observations

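Enzymes that handle the same eicosanoids by other routes did not move as 1 group. Of 16 tested, 4 rose and 1 fell, with a median change of 0.10. Over all genes tested 6.01% rose and 7.33% fell, with a median of 0.07. The epoxygenase genes Cyp2c54 and Cyp2c50, which turn arachidonic acid into epoxides, rose by 1.68 and 0.68 (limma adjusted p = 0.0385 and 0.0413). Of other Cyp2c genes, Cyp2c37 rose by 0.56 (limma adjusted p = 0.0472) and Cyp2c38 fell by 0.47 (limma adjusted p = 0.0493). Ptgs1, a cyclooxygenase gene of prostaglandin synthesis, rose by 0.49 from a low level of 4.43 FPKM (limma adjusted p = 0.0415). Cyp2c29, another epoxygenase gene, differed by 0.70 (limma adjusted p = 0.0864), and Ephx2, the hydrolase that removes the epoxides, by 0.17 (limma adjusted p = 0.309). The Cyp2c genes are close paralogs, so reads may be split among them. All 5 called genes missed the threshold without BT replicate 1.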
